A study of Glycine max with 14 samples.

Results

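Glycinin is the 11S globulin of soybean seeds, and its genes were followed here through seed coat RNA. The members were all gene models (predicted transcripts) of the loci Glyma03g32030 (Gy1), Glyma03g32020 (Gy2), Glyma19g34780 (Gy3), Glyma10g04280 (Gy4) and Glyma13g18450 (Gy5). The loci were chosen by name and by no threshold on their values, though earlier results of these data were known. Of these 5 loci, 4 were measured, with 5 gene models among the 69425 complete ones, since Gy2 had 2 models. Gy5 was not analysed here. The seed coats were dissected from greenhouse plants of 2 homozygous lines in the Clark background. RM30-R* (genotype i,R*,T) has black seed coats and is a stable revertant, a single line found in the variegated rm isoline, and RM38-r (genotype i,r,T) is a Clark isoline with brown seed coats. Both lines therefore carry the i and T alleles. RNA was sequenced in 14 libraries, 7 per line, at 5 stages set by the fresh weight of the seed. While the cotyledons were green these were 100–200 mg, 200–300 mg, 300–400 mg and lastly 400–500 mg, and the final stage, called desiccating here, was of 300–400 mg seeds that had begun to dry and whose cotyledons had yellowed. There were 2 libraries per line at 300–400 mg (green) and 400–500 mg, and 1 per line at the other stages.

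Each glycinin is made as 1 precursor in the endoplasmic reticulum, which is trimmed of its signal peptide, assembled, and cut in the storage vacuole by a vacuolar processing enzyme into an acidic and a basic chain that stay joined by a disulfide bond. The processed subunits form hexamers that fill protein bodies of the cotyledon cells and feed the seedling after germination. The soybean genes fall into group I (Gy1, Gy2 and Gy3) and group II (Gy4 and Gy5). Glycinin and the 7S globulin beta-conglycinin are the main stores of protein of the embryo, while the seed coat is maternal tissue that surrounds it and carries sugars and amino acids towards it. In bulk RNA, fewer cells of a type and less RNA per cell cannot be told apart.

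Levels were given as RPKM, reads per kilobase of gene model scaled to the mapped alignments of the library, so that genes of different length can be set side by side. The RPKM corresponded to totals of 52510465 to 120239045 alignments per library in the 13 libraries other than R123 (RM30-R*, 300–400 mg, replicate 1). The total recovered for R123, 99019538, was higher relative to the reads that the paper lists than in any other library. All glycinin read counts recovered for R123 were even, so its counts and total may be doubled. The RPKM values do not depend on them. A read was counted in every model it aligned to, so near-identical glycinin copies, and above all the 2 models of Gy2, could share reads, and the split of reads between them is uncertain. Library R125 (RM38-r, 300–400 mg, replicate 1) stood apart in composition, with a 75th percentile of detected models at 6.29 RPKM against 8.05 to 9.64 RPKM in the other 13 libraries, the lowest of them R113 (RM38-r, 400–500 mg, replicate 1). No glycinin model was called in any comparison of the fits as reported, nor with R125 and R113 both left out. The labels of the lines could be read from ANS2, an anthocyanidin synthase gene, which at 300–500 mg (green) was at 12.9 to 35.4 RPKM in RM30-R* and at 2.17 to 5.82 RPKM in RM38-r. All 11 models of 8 seed coat flavonoid genes named by the study were above 0 in every library, with a summed level of 57.2 to 1612 RPKM. All 21 models of 17 loci listed as cotyledon storage genes were also above 0 in every library, with sums of 218 to 3470 RPKM, and none of their defining models was at 0.

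Glycinin transcripts were present in all 14 seed coat libraries, at levels that differed widely from library to library. The summed level of the 4 loci, taking the first model of each, ran from 4.93 RPKM in RM30-R* at 100–200 mg to 105 RPKM in RM38-r replicate 2 at 400–500 mg, a 21.2-fold range with a median of 23.2 RPKM. This was 0.000772% to 0.0178% of the summed RPKM of a library. Gy1 stood above 58.0% to 96.1% of all gene models in the same library, and Gy3 above 39.2% to 72.8%.

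**Figure D1:**
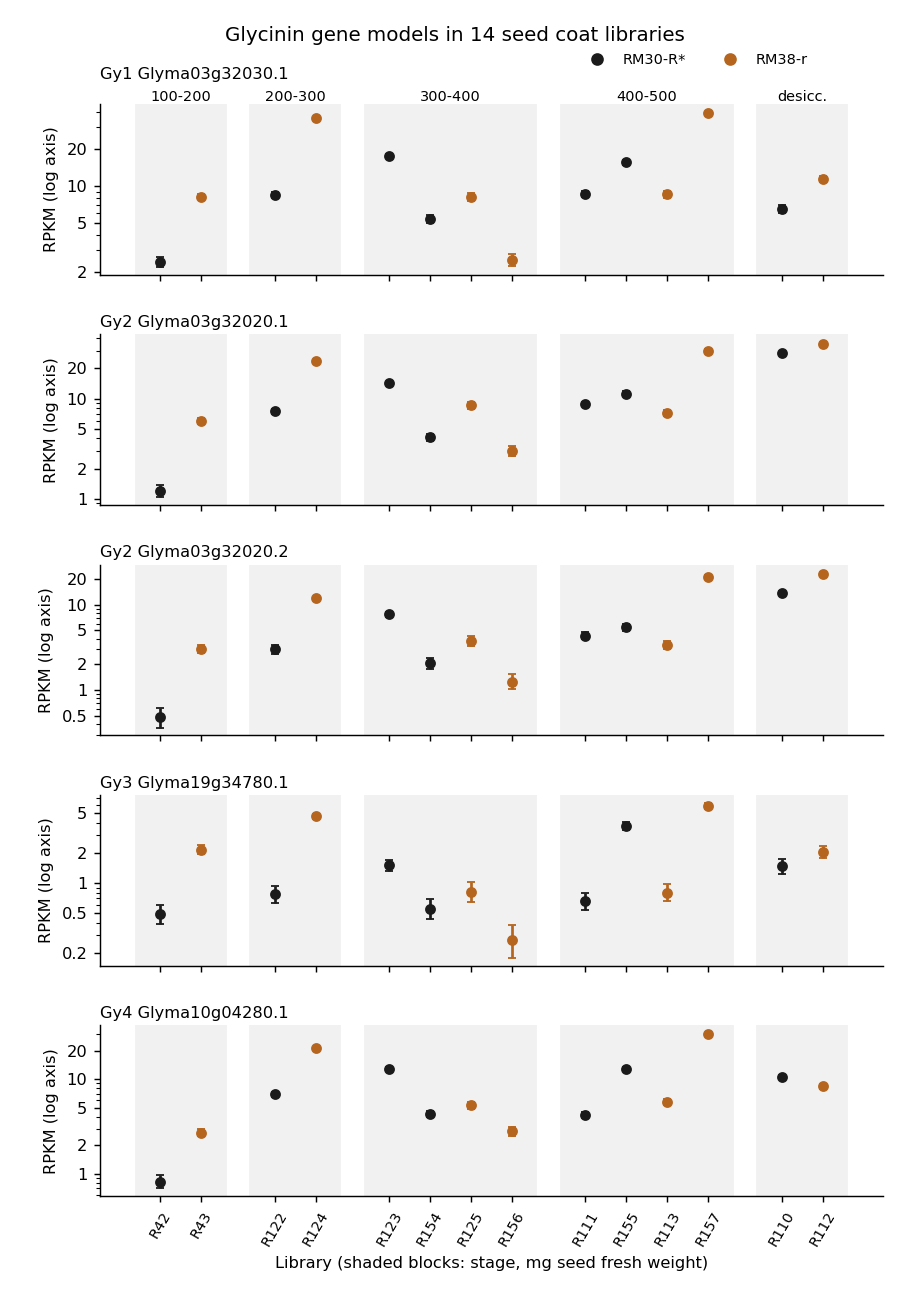
RPKM (log axis) of the 5 glycinin gene models in each of 14 libraries, grouped by stage (mg seed fresh weight) and coloured by line, with 95% exact Poisson intervals of the reads. The intervals of R123 rest on an uncertain read total and may be too narrow. Points of the same line and stage lie far apart beside their counting intervals, as at 400–500 mg in RM38-r, where Gy1 was at 8.54 and 39.0 RPKM.

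Gy1, the first of the group I genes, was measured with 283 to 7556 reads per library. At 100–200 mg Gy1 was at 2.43 RPKM in RM30-R* against 8.21 RPKM in RM38-r, and at 200–300 mg it was at 8.41 and 35.7 RPKM. At 300–400 mg it was at 17.5 and 5.43 RPKM in the 2 RM30-R* libraries and at 8.16 and 2.51 RPKM in the 2 RM38-r libraries. The lines overlapped there, and the replicates differed 3.23-fold in RM30-R* and 3.24-fold in RM38-r.

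Gy1 was then, at 400–500 mg, at 8.59 and 15.5 RPKM in RM30-R*, against 8.54 and 39.0 RPKM in RM38-r. In the desiccating seed coats it was at 6.56 RPKM in RM30-R* against 11.4 RPKM in RM38-r. The highest Gy1 levels thus came from 2 RM38-r libraries of different stages, and the lowest from the youngest RM30-R* library. Counting error was small beside these differences: the 39.0 RPKM rested on 5110 reads, with a 95% exact Poisson interval of 37.9 to 40.1 RPKM. Such intervals cover counting error only, since reads amplified by PCR are not independent molecules.

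Gy2, like Gy1 a group I gene of chromosome 3, followed Gy1 through the green stages. Its first model was at 1.19 RPKM in RM30-R* against 5.99 RPKM in RM38-r at 100–200 mg, and at 7.46 and 23.7 RPKM at 200–300 mg. At 300–400 mg it was at 14.2 and 4.09 RPKM in RM30-R* and at 8.56 and 3.01 RPKM in RM38-r. These 4 libraries kept the order they had for Gy1.

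The first Gy2 model at 400–500 mg was at 8.83 and 11.2 RPKM in RM30-R* and at 7.18 and 30.1 RPKM in RM38-r. In the desiccating seed coats it was at 28.4 RPKM in RM30-R* against 35.5 RPKM in RM38-r. For this gene both desiccating libraries were among the 3 highest of all 14, which was not so for the other 3 loci. The shorter second model of Gy2 (1182 nt, against 1725 nt) was at 0.479 to 22.8 RPKM, or 0.402 to 0.702 times the first, and over 14 libraries the log2 levels of the 2 models had a Pearson r of 0.99.

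Gy3, the group I gene on chromosome 19, had the lowest level of the 4 loci in every library, with 29 to 939 reads. It was at 0.486 RPKM in RM30-R* against 2.15 RPKM in RM38-r at 100–200 mg, and at 0.773 and 4.60 RPKM at 200–300 mg. At 300–400 mg it was at 1.50 and 0.553 RPKM in RM30-R* and at 0.819 and 0.267 RPKM in RM38-r. In each of these pairs of libraries 1 value was at least 2.71 times the other.

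For Gy3 the values at 400–500 mg were 0.657 and 3.74 RPKM in RM30-R* and 0.802 and 5.86 RPKM in RM38-r. In the desiccating seed coats it was at 1.47 RPKM in RM30-R* against 2.03 RPKM in RM38-r. The 2 lines overlapped at 400–500 mg, where replicate 2 of either line was far above replicate 1. For Gy3, 3 reads correspond to 0.0147 to 0.0337 RPKM in the libraries other than R123, whose read total is uncertain. This is well under the lowest value of Gy3.

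Gy4, the group II gene measured, was at 0.824 RPKM in RM30-R* against 2.71 RPKM in RM38-r at 100–200 mg, and at 6.92 and 21.2 RPKM at 200–300 mg. At 300–400 mg it was at 12.8 and 4.26 RPKM in RM30-R* and at 5.26 and 2.80 RPKM in RM38-r. Its range of 36.0-fold over the 14 libraries was the widest of the glycinin models but for the second model of Gy2. Gy4 at 400–500 mg was at 4.16 and 12.9 RPKM in RM30-R* and at 5.76 and 29.7 RPKM in RM38-r, and in the desiccating seed coats at 10.5 and 8.36 RPKM. Gy4 was higher in RM30-R* in the desiccating pair and in both pairs at 300–400 mg, and lower in the other 4 pairs.

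The proportions among the genes were more alike between libraries than the levels. In the 12 green libraries the RPKM of Gy2 (first model) was 0.491 to 1.20 times that of Gy1, with a median of 0.792. In the desiccating seed coats the ratio was 4.33 in RM30-R* and 3.11 in RM38-r, so both libraries lay outside the green range. The Gy4 to Gy1 ratio was 0.330 to 1.11 in the green libraries, with its lowest values, 0.339 and 0.330, in the pair at 100–200 mg, and 1.61 and 0.733 in the desiccating ones.

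The Gy3 to Gy1 ratio ran from 0.0764 to 0.261 without separating the desiccating libraries, at 0.224 and 0.178, from the rest. Over the 12 green libraries the log2 levels of any 2 glycinin models had a Pearson r of 0.80 to 0.99, given as a description, since the models can share reads and the points share the depth of their library. For Gy1 and the first Gy2 model, r was 0.97 over the 12 green libraries and 0.78 over all 14.

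**Figure D2:**
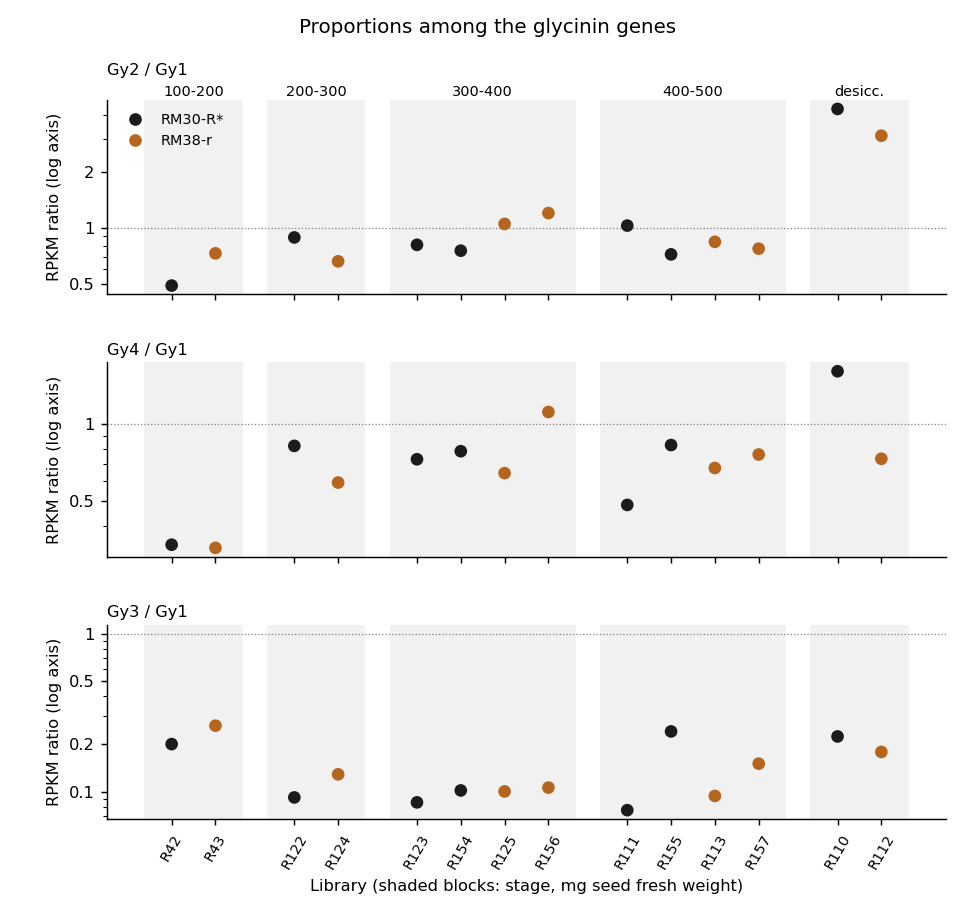
Ratios of the RPKM of Gy2 (first model), Gy4 and Gy3 to that of Gy1 (log axes) in each of 14 libraries, by stage and line. The desiccating libraries stand at 4.33 and 3.11 for Gy2 to Gy1, above the 12 green libraries at 0.491 to 1.20, whereas for Gy3 to Gy1 they lie within the green range.

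The order of the libraries by summed glycinin mixed stages and lines. The sums were 105 RPKM in RM38-r replicate 2 at 400–500 mg and 85.2 RPKM in RM38-r at 200–300 mg, and then 57.3 and 46.9 RPKM in desiccating RM38-r and RM30-R*. RM30-R* replicate 1 at 300–400 mg followed with 46.0 RPKM and RM30-R* replicate 2 at 400–500 mg with 43.4 RPKM. The next 5 libraries lay between 19.05 and 23.6 RPKM and came from both lines and 4 stages. The last 3 were RM30-R* replicate 2 at 300–400 mg, RM38-r replicate 2 at 300–400 mg and RM30-R* at 100–200 mg, at 14.3, 8.60 and 4.93 RPKM. The 2 RM38-r replicates at 400–500 mg took places 1 and 9 in this order. The groups with 1 library have no spread of their own, so the order of their neighbours could not be set against one.

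In each of the 4 replicate pairs, every glycinin model differed by more than the median over all models. For the Gy2 models in RM30-R* at 400–500 mg the excess was small, at 0.33 and 0.30 against 0.235 in absolute log2 difference. In RM38-r at 400–500 mg, replicate 2 (R157) was 4.20 to 7.31 times as high as replicate 1 (R113) over the 5 glycinin models, an absolute log2 difference of 2.00 to 2.49 against a median of 0.29 over all 44080 models tested. In RM30-R* at 300–400 mg, replicate 1 was 2.71 to 3.77 times as high as replicate 2 (log2 difference 0.93 to 1.69, median over all models 0.22). In RM30-R* at 400–500 mg replicate 2 was 1.25 to 5.69 times as high as replicate 1 (0.30 to 1.87, median 0.235). In RM38-r at 300–400 mg, replicate 2 (R156) was at 0.308 to 0.533 times the level of replicate 1 (R125), with absolute log2 differences of 0.78 to 1.52 against a median of 0.51. All 5 models moved the same way within each of the 4 replicate pairs.

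Whether glycinin changed as the seed grew was asked with limma on log2(RPKM + 0.5) of all 14 libraries, with stage and line as terms, p-values adjusted by the Benjamini-Hochberg method over 44080 gene models and an adjusted p under 0.05 as the threshold. At 3 stages the 2 lines stood in as the replicates, and nothing states that every library came from separate plants, so p-values measure the spread between these libraries. From 100–200 to 200–300 mg, 0 of the 5 glycinin models passed, against 4.27% of all models higher and 12.4% lower. Gy4 came closest, with a log2 change of 2.62 (SE 0.85, 95% interval 0.77 to 4.47, limma adjusted p = 0.0543), and was higher at 200–300 mg in both lines.

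Over 24 alternative settings the adjusted p of Gy4 for that change ran from 0.0301 to 0.361 and was under 0.05 in 6, among them a rescaling of the libraries to equal 75th percentiles (adjusted p = 0.0482). Gy4 also passed when any one of R123, R156, R111 or R157, libraries of later stages, was left out. The first Gy2 model had a log2 change of 2.07 (SE 0.79, limma adjusted p = 0.0999), and passed in 1 of 24 alternatives, without R123 (limma adjusted p = 0.0491). Gy1 had 1.83 (SE 0.89, limma adjusted p = 0.199), and Gy3 had 0.66 (SE 0.83, limma adjusted p = 0.664), which turned to -0.22 without RM38-r at 200–300 mg. The median over the 5 models was 1.83, beside -0.04 over all models tested.

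The storage genes that accompany glycinin in the cotyledon were called over the same step. Of the 21 models on the cotyledon list, 18 rose and 0 fell, with a median log2 change of 3.30, and 15 to 18 rose with any 1 library left out. Names on this list are those under which the loci were entered, as the files do not pair loci with names. The model entered as the alpha prime subunit of beta-conglycinin, Glyma10g39150.1, rose by 5.69 (SE 0.55, limma adjusted p = 1.21e-05). The 2S albumin Glyma12g34160.1 rose by 5.91 (SE 0.56, limma adjusted p = 1.03e-05). The 3 models that did not pass were the seed lectin Glyma02g01590.1 at 2.09, the vacuolar thiol protease relative P34 (Glyma08g12270.1) at 1.99 and the Kunitz trypsin inhibitor Glyma08g45530.1 at 1.57, all with standard errors of 0.76 to 1.07, beside 0.79 to 0.89 for glycinin.

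**Figure D3:**
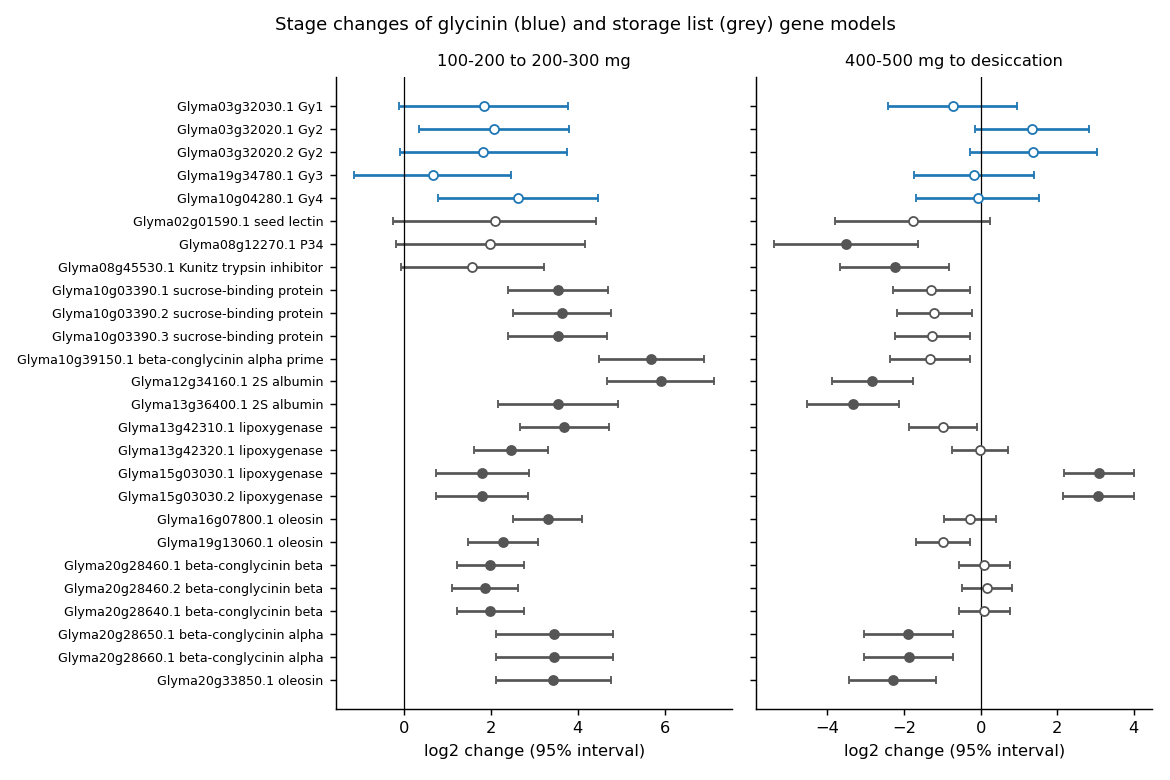
Fitted log2 change with its 95% interval for the 5 glycinin models (blue) and the 21 models of the storage list (grey), from 100–200 to 200–300 mg and from 400–500 mg to desiccation, where filled points have an adjusted p under 0.05. All 5 blue points are open in both panels, and 18 grey points in the left panel are filled.

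The other steps gave no called glycinin model. From 200–300 to 300–400 mg the 5 models had log2 changes of -1.31 to -0.90, and 0% of all models passed in limma (2142 had an unadjusted p under 0.05, none of the 5 among them). From 300–400 to 400–500 mg they had 0.82 to 1.06, limma adjusted p = 0.484 to 0.585, against 0.504% of all models called (0.456% higher and 0.0476% lower).

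From 400–500 mg to desiccation 0 of 5 passed, against 17.9% of all models called (9.17% higher and 8.76% lower). The 2 Gy2 models had log2 changes of 1.35 (SE 0.68, limma adjusted p = 0.197) and 1.38 (SE 0.76, limma adjusted p = 0.235). Gy1 had -0.72 (SE 0.77, limma adjusted p = 0.560), Gy3 -0.18 (SE 0.72) and Gy4 -0.08 (SE 0.73), and the last 2 turned to above 0 when RM30-R* replicate 2 or RM38-r replicate 2 at 400–500 mg was left out, at most 0.43. Gy4 also did, at 0.31, without desiccating RM38-r. The difference between Gy2 and the other glycinin genes at this step was not tested.

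On the cotyledon list 7 models fell and 2 rose at desiccation, with a median log2 change of -1.26. P34 fell by 3.51 (SE 0.86, limma adjusted p = 0.0160) and both 2S albumins fell, while the 2 models of the lipoxygenase Glyma15g03030, an enzyme that oxidises linoleic and linolenic acid, rose by 3.09 and 3.07. Without desiccating RM38-r only 1 of the 21 fell, 4 fell without RM30-R* replicate 2 or RM38-r replicate 2 at 400–500 mg, and 3 to 11 fell under the other alternatives. On the seed coat flavonoid list 9 of 11 models fell, and 1 fell when either desiccating library was left out. Of the 5 measured models entered as the embryo regulators LEC1, ABI3 and FUS3, transcription factors that switch on storage protein genes in Arabidopsis seeds, 2 fell (both entered as LEC1) and 0 rose at desiccation, and 0 passed from 100–200 to 200–300 mg. The regulators did not share a direction at desiccation. The ABI3 model Glyma08g47240.1 had a log2 change of 1.08 (SE 0.38, limma adjusted p = 0.0685), and the FUS3 models had -1.06 and -1.38. With any 1 library left out 0 to 3 of the 5 fell, and 0 without desiccating RM38-r or with a separate mean per line and stage. In each of 5 alternatives 1 of the 5 rose, namely with rescaling, with quantile normalization, without R125 and R113 together, without R125, and without R156.

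The black and brown lines were compared in 7 library pairs of the same stage. RM38-r had the higher summed glycinin at 100–200 mg, by 3.86-fold, and at 200–300 mg, by 3.61-fold. RM30-R* had the higher sum in both pairs at 300–400 mg, by 2.02-fold and 1.67-fold. Of the pairs at 400–500 mg, R111 and R113 had nearly the same sum, 22.2 and 22.3 RPKM, while in the pair R155 and R157 RM38-r was higher by 2.41-fold, and in the desiccating pair by 1.22-fold.

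All 5 models shared the direction of the sum in the pairs at 100–200, 200–300 and 300–400 mg and in the pair R155 and R157. In the desiccating pair 4 of 5 did, with Gy4 at a log2 difference of 0.32 towards RM30-R*. Over the 7 pairs the mean log2 difference, RM30-R* minus RM38-r, was -0.52 for Gy1 (SD 1.23), -0.55 for the first Gy2 model, -0.50 for Gy3 and -0.34 for Gy4, with two-sided exact sign-flip permutation p-values of 0.312, 0.219, 0.250 and 0.438. The smallest p that 7 pairs allow is 0.0156. In a limma fit blocked by pair, 0 of 5 models and 0% of all models passed (4016 had an unadjusted p under 0.05, none of the 5 among them).

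**Figure D4:**
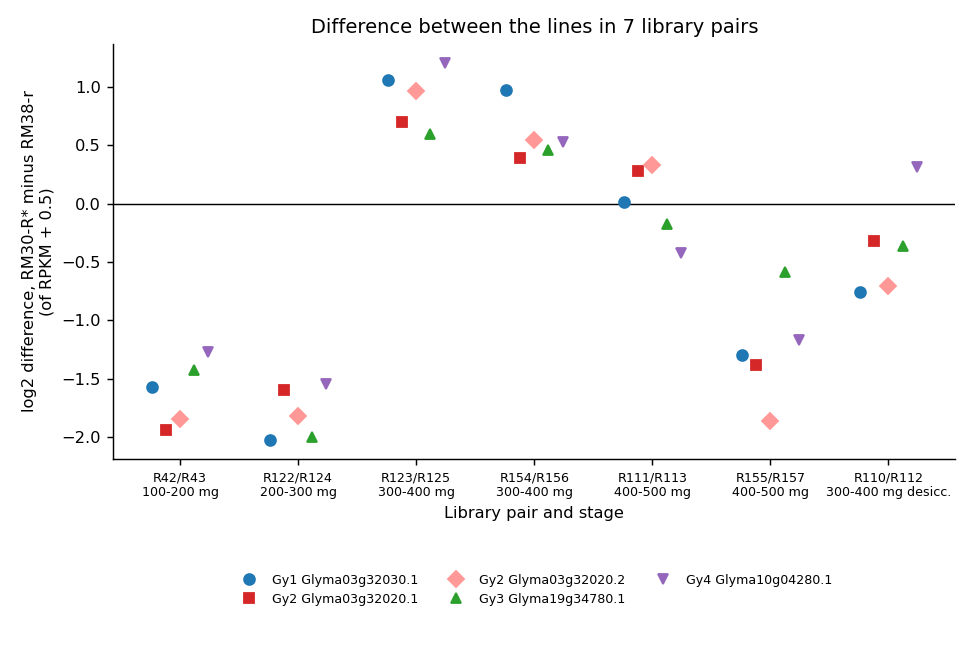
Difference between the lines in log2(RPKM + 0.5), RM30-R* minus RM38-r, for the 5 glycinin models in the 7 library pairs, with stages under the pairs. The points lie under 0 in the pairs at 100–200 and 200–300 mg, above 0 in both pairs at 300–400 mg, and under 0 again in the pair R155 and R157.

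The stages with 2 libraries per line were also fitted alone, as 8 libraries and 40334 gene models. At 300–400 mg 0 of 5 glycinin models passed, against 0.0298% of all models called, 0.00992% higher and 0.0198% lower. These were 12 models, 4 higher and 8 lower, or 895 in a fit blocked by library pair, 597 higher and 298 lower, and none of the 5 was among either. Gy1 had a log2 difference of 1.02 towards RM30-R* (SE 0.77, 95% interval -0.72 to 2.75, limma adjusted p = 0.533), and the other models had 0.53 to 0.87. The median over all models leaned the same way, at 0.33, and was 0.05 after rescaling to equal 75th percentiles. The 2 Gy2 models turned to -0.30 and -0.09 without R123, and the first Gy2 model to -0.14 without R156.

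In the 400–500 mg libraries the 5 models had -0.38 to -0.80, with 95% intervals from -2.57 to 1.39, and 0% of all models passed in limma (141 had an unadjusted p under 0.05). The direction there rested on R157: without it, all 5 models had differences of 0.34 to 0.77 towards RM30-R*, and Gy3 also turned, to 0.56, without R111. The line by stage interaction was -0.91 to -1.67 (limma adjusted p = 0.995), with 0% of all models called (1298 had an unadjusted p under 0.05; 10 models, none of glycinin, were called in the fit blocked by pair). The interaction of Gy3 turned to 0.03 and 0.24 without R111 and R157.

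Glycinin was set beside beta-conglycinin, the 7S globulin stored with it. The 5 beta-conglycinin loci summed to 37.5 RPKM in RM30-R* at 100–200 mg and 54.2 RPKM in RM38-r, and to 917 and 1373 RPKM at 200–300 mg. They include near-identical copies whose reads may be counted more than once. At the later green stages the sum was 306 to 847 RPKM, and in the desiccating seed coats 287 RPKM in RM30-R* against 118 RPKM in RM38-r.

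The glycinin to beta-conglycinin ratio was thus 0.132 and 0.352 at 100–200 mg and 0.164 and 0.486 in the desiccating seed coats, with the higher value in RM38-r each time. In the 10 green libraries of 200–500 mg it ran from 0.0101 to 0.233. The lowest came from RM38-r replicate 2 at 300–400 mg, where glycinin was at 8.60 RPKM and beta-conglycinin at 847 RPKM, and the highest from RM38-r replicate 2 at 400–500 mg, at 105 and 449 RPKM. In every library glycinin had the lower sum. Over these 10 libraries the log2 sums of the 2 globulins had a Pearson r of 0.26, as a description. The r was 0.57 over the 12 green libraries and 0.43 over all 14.

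**Figure D5:**
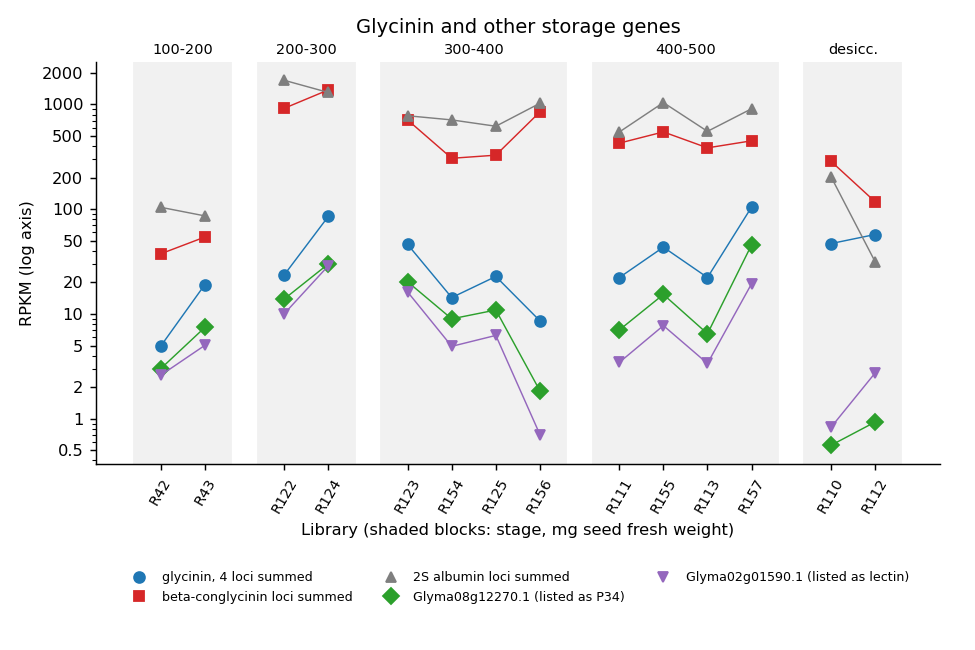
Summed RPKM (log axis) of the 4 glycinin loci, the beta-conglycinin loci and the 2S albumin loci, with the models entered as P34 and seed lectin, in 14 libraries by stage. Lines join libraries of the same stage. P34 and lectin were the only 2 storage list models among the 100 most like glycinin over the 12 green libraries. The Kunitz trypsin inhibitor model, not drawn, was at 40.2 RPKM in R156 against 10.6 RPKM in R125. In R156 glycinin, P34 and lectin were low, at 8.60, 1.85 and 0.707 RPKM, while beta-conglycinin was at 847 RPKM, and in R157 they were at 105, 45.6 and 19.4 RPKM beside beta-conglycinin at 449 RPKM.

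Other cotyledon genes moved with glycinin between replicates, and not all did so. Between R157 and R113, the P34 model was 7.04 times, the Kunitz trypsin inhibitor model 5.95 times and the lectin model 5.76 times as high in R157, next to 4.20 to 7.31 times for glycinin, while the alpha prime beta-conglycinin model was at 0.958 times. Of the 21 models on the list, 15 were higher in R157, with a range of 0.874 to 7.04. Between R156 and R125 the glycinin models were lower in R156, as were lectin at 0.113 times and P34 at 0.169 times. By contrast, 18 of the 21 models and all 5 regulator models were higher in R156, the Kunitz trypsin inhibitor model 3.80 times. R125 stood apart in composition, and the upper quartile of its detected models was 6.3 RPKM, against 8.9 RPKM in R156. These higher values were not separated from that general difference, and the share of all models higher in R156 was not counted.

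Between R123 and R154, 20 of the 21 models were higher in R123, at 0.991 to 3.30 times, as were all 5 glycinin models. The share of all models was not counted here either. The seed coats had been dissected from the cotyledons. How much of the glycinin signal came from cotyledon tissue or its RNA was not tested, and no library of cotyledons was analysed here to set these levels against. The summed storage list was at 218 and 255 RPKM at 100–200 mg, 3198 and 3470 RPKM at 200–300 mg, 1299 to 2617 RPKM at 300–400 mg, 1388 to 2100 RPKM at 400–500 mg, and 1001 and 765 RPKM at desiccation.

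The genes most like glycinin were ranked by the Pearson r of log2(RPKM + 0.5) with the summed glycinin level over the 14 libraries. The highest of 44075 models were Glyma06g00950.1 (r = 0.89, 4.71 to 31.8 RPKM), Glyma07g05030.1 (r = 0.89) and Glyma04g00920.1 (r = 0.88), and the next 7 were Glyma04g38120.1, Glyma19g32410.1, Glyma08g46030.1, Glyma15g23750.1, Glyma06g46750.1, Glyma19g22730.1 and Glyma07g30090.1 (r = 0.82 to 0.85). None of the 100 most alike was on the storage, flavonoid or regulator list. With this many models and 14 libraries that share depth and composition, such r values are a description of these libraries.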

How the data were processed

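The authors sequenced single reads of 100 nt, aligned them with Bowtie 1 to 78773 Glyma1 cDNA models with up to 3 mismatches and counted every alignment of reads with up to 25. They deposited RPKM, not scaled across libraries. The annotation given with the data is of another build (Glycine_max_v4.0), so it served only for gene symbols and chromosomes. No sequence or coordinate is given. One incomplete line of the table was left out. Read counts and library totals behind RPKM were recovered from the steps between low values: all 13932 low models checked (under 1 RPKM, above 0 in at least 5 libraries) gave whole reads within 0.01. A total too high by a whole factor would also give whole reads, so this check could not test the totals. That of R123 is uncertain for this reason.

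Models that reached 0.5 RPKM in 2 or more libraries were tested with limma 3.58.1 in R 4.3.3, two-sided, with moderated variances and a trend. The functions were tested on simulated data. The members and lists were chosen with earlier results of these data known. The named genes are all member models, the lists, and the 10 most alike. A list of enzymes that process glycinin could not be built without annotation. Pairs join the libraries of both lines at a stage whose library numbers belong together. Paired libraries departed from their groups in the same direction (r = 0.18 at 300–400 mg, r = 0.60 at 400–500 mg). The pair was a block in the fit over all library pairs. The separate fit of the stages with replicate libraries had no block as reported, and the pair was added to it only as an alternative.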

Additional observations from a re-analysis of the deposited data

How the results depend on the processing

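No glycinin model was called in the fits as reported, and no alternative called one in a comparison between lines. Under alternatives that kept every library or dropped R125 and R113 together, 405 values of single models kept their direction and side of the threshold and 2 passed it. With 1 library left out 448 did, 5 passed and 17 turned. With 1 library left out, the 300–400 mg line difference ran from -0.30 to 1.38 and from -0.092 to 1.60 for the Gy2 models, and that at 400–500 mg from -1.71 to 0.42 for Gy1, -1.55 to 0.44 and -2.01 to 0.48 for the Gy2 models, -1.52 to 0.77 for Gy3 and -1.93 to 0.34 for Gy4. The Gy3 interaction ran from -2.05 to 0.24 and its change from 100–200 to 200–300 mg from -0.22 to 1.54. At desiccation Gy4 ran from -0.46 to 0.43 and Gy3 from -0.62 to 0.22.

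Calls over all models moved more. The 12 at 300–400 mg became 6 with a filter of 1 RPKM, with rescaling or with quantile normalization (0 higher in the last 2, against 4 higher and 8 lower), 5 with a pseudocount of 0.1, 0 without a filter, with the first model of each locus or without R125 and R113, 852 in a fit to that stage alone (537 higher and 315 lower), and 0 to 464 with 1 library left out. With the library pair as a replicate block they became 895 (597 higher and 298 lower), and the 0 of the interaction became 10. The block changed no other call. At 400–500 mg 0 became 0 to 1 with 1 library left out. From 100–200 to 200–300 mg the 7353 became 4463 with a separate mean per line and stage, 11194 without a filter, 11739 with rescaling, 11782 with quantile normalization (6345 higher and 5437 lower, against 1882 and 5471) and 1406 to 10226 with 1 library left out, the lowest without RM38-r at 100–200 mg. From 200–300 to 300–400 mg 0 became 1 without a filter. From 300–400 to 400–500 mg the 222 (201 higher) became 6, 74, 417 (288 higher) and 468 (323 higher) in the same order, 0 without R125 and R113, and 21 to 331 with 1 library left out. At desiccation the 7903 became 3686 with separate means, 14037 with rescaling (5278 higher and 8759 lower, against 4041 and 3862), 13271 with quantile normalization, 11883 without R125 and R113, and 1091 to 11835 with 1 library left out, the lowest without RM38-r. The cause was not tested.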

Other observations

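The ranking of genes most like glycinin was repeated, after the data were seen, over the 12 green libraries. Glyma07g05030.1 was at rank 2 in both rankings, and Glyma06g00950.1 was at rank 1 over 14 libraries and rank 9 over 12. The model entered as P34, Glyma08g12270.1, was the most alike of 44066 models over the 12 libraries (r = 0.94), at 1.85 to 45.6 RPKM. The model after it in the numbering, Glyma08g12280.1, was at rank 4 (r = 0.90), at 0.118 to 7.44 RPKM, and the seed lectin model Glyma02g01590.1 was at rank 15 (r = 0.87). These 2 listed storage models, P34 and lectin, were the only ones among the 100 most alike. The model entered as alpha prime beta-conglycinin had r = 0.53 and was at rank 3215. In the desiccating seed coats P34 was at 0.558 RPKM in RM30-R* against 0.930 RPKM in RM38-r and lectin at 0.827 and 2.73 RPKM, while the first Gy2 model was at 28.4 and 35.5 RPKM.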
